A study of Rattus norvegicus with 12 samples.

Results

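Homer1 was measured by 5 probe sets, each a group of short oligonucleotides on an Affymetrix rat array that is summarised as 1 value. The members are all probe sets to which the array's annotation gives Homer1 as the single gene symbol, 5 of the 15866 probe sets tested. A further 1 probe set that carries Homer1 beside another symbol was left out. The cultures were made from the ventral midbrain of CD1 rat embryos at day 12, and in both treatments the medium held 20 ng/ml of the mitogen bFGF with 50 ng/ml of the patterning factor SHH for the first 6 days and neither for the last 3. After 9 days one treatment was depolarized for 2 h with 56 mM KCl, which was then removed, and the other stayed in control medium. Depolarized and control cultures collected 30 min after that period, and depolarized and control cultures collected 2 h after it, form 4 groups of 3 arrays. Embryos of 4 rats were mixed into 3 groups and RNA of duplicate cultures was pooled, so the spread between arrays is that of pooled cultures and not of animals.

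Homer1 encodes a scaffold of the postsynaptic density. The amino-terminal EVH1 domain of the protein binds proline-rich stretches of group I metabotropic glutamate receptors, inositol trisphosphate receptors, ryanodine receptors and Shank proteins, and the carboxy-terminal coiled coil of the long forms joins Homer molecules to each other. Neuronal activity is known to raise short transcripts, Homer1a and Ania-3, which end within the gene, lack the coiled coil and compete with the long forms. The array's annotation ties the 5 probe sets to 4 sequence records, with 1368318_at and 1368319_a_at sharing a record, and does not name the transcript each one reads. The probe sets are therefore described apart and none is assigned to a short or a long form.

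In the GRCr8 rat assembly, which RefSeq annotates and which is newer than the array, Homer1 lies on the forward strand of chromosome 2 between positions 26279012 and 26388279, a span of 109268 bases. The 250 bases before its annotated start, chr2:26278762-26279011, are shown as the promoter nearest to that start.
Homer1 promoter: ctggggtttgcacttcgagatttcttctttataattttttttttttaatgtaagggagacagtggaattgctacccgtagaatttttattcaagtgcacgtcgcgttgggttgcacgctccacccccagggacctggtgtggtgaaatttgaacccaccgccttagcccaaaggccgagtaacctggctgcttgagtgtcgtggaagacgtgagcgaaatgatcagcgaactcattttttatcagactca
A search of both strands found 0 matches in this window to the cyclic AMP response element TGACGTCA, which 1.59% of 33469 promoters of that length hold, and 0 to its first letters TGACG, held by 18.2%. The AP-1 motif TGANTCA (in 6.34% of promoters), the EGR motif GCGTGGGCG (0.478%), the E-box CACGTG (5.59%), the MEF2 consensus (2.96%) and the CArG box of SRF (1.5%) also had 0 matches. The full response element contains TGACG, so the first 2 searches overlap. These counts say only that the letters are not in this window.

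The deposited values are log2 RMA expression summaries, and differences below are in log2 units. Array medians lay between 8.33 and 8.43, and across probe sets the lowest and highest correlations within a group were 0.9957 and 0.9979. Neuronal markers were measured for 8 of 9 genes and dopaminergic markers, tyrosine hydroxylase (Th) among them, for 8 of 10. Summed on the linear scale, the neuronal markers were at 17081 to 18468 in depolarized arrays and 15250 to 17914 in controls at 30 min, and at 32546 to 36256 in depolarized arrays and 36122 to 36523 in controls at 2 h. The cultures of the 2 collection times thus differed in neuronal marker RNA, and the labels do not say whether they came from the same preparation. In these bulk RNA samples, fewer cells of a type and less RNA per cell cannot be told apart.

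Probe set 1370454_at gave the larger Homer1 response at 2 h. At 30 min it read 7.97, 7.97 and 8.07 in depolarized cultures, against 6.42, 6.66 and 6.99 in controls. The 3 depolarized arrays lay wholly above the controls, 2.49-fold higher (difference 1.32, 95% interval 1.06 to 1.57, adjusted p = 8.13e-07 by limma). At 2 h it read 9.05, 8.64 and 8.99 in depolarized cultures, against 6.70, 6.63 and 6.75 in controls. The difference there was 2.20 (1.94 to 2.46, adjusted p = 6.89e-09), a 4.60-fold rise that ranked 14th from the top of 15866 probe sets by size. The response at 2 h exceeded that at 30 min by 0.89 (SE 0.17, adjusted p = 0.00252 for the difference of the responses). In order, the groups ran from depolarized at 2 h (8.89 ± 0.23, SD, n = 3) and depolarized at 30 min (8.003 ± 0.06) to the controls at 2 h (6.69 ± 0.06) and at 30 min (6.69 ± 0.29), and only the 2 control groups overlapped.

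Probe set 1370997_at gave the larger Homer1 response at 30 min. Its values were 8.21, 8.40 and 8.59 in depolarized cultures at 30 min, against 6.41, 6.61 and 6.33 in controls. This is a rise of 1.95 (1.70 to 2.21, adjusted p = 1.20e-08), or 3.87-fold, the 18th largest of all probe sets. At 2 h the depolarized cultures read 7.63, 7.47 and 7.997, against 6.55, 6.41 and 6.42 in controls. The rise was then 1.24 (0.99 to 1.50, adjusted p = 4.00e-06), or 2.36-fold, again with no overlap. Here the response at 2 h was the smaller one, by -0.71 (SE 0.17, adjusted p = 0.0102). Depolarized cultures at 30 min (8.40 ± 0.19) stood highest, those at 2 h (7.70 ± 0.27) next, and the controls at 2 h (6.46 ± 0.08) and 30 min (6.45 ± 0.14) overlapped at the bottom.

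**Figure D1:**
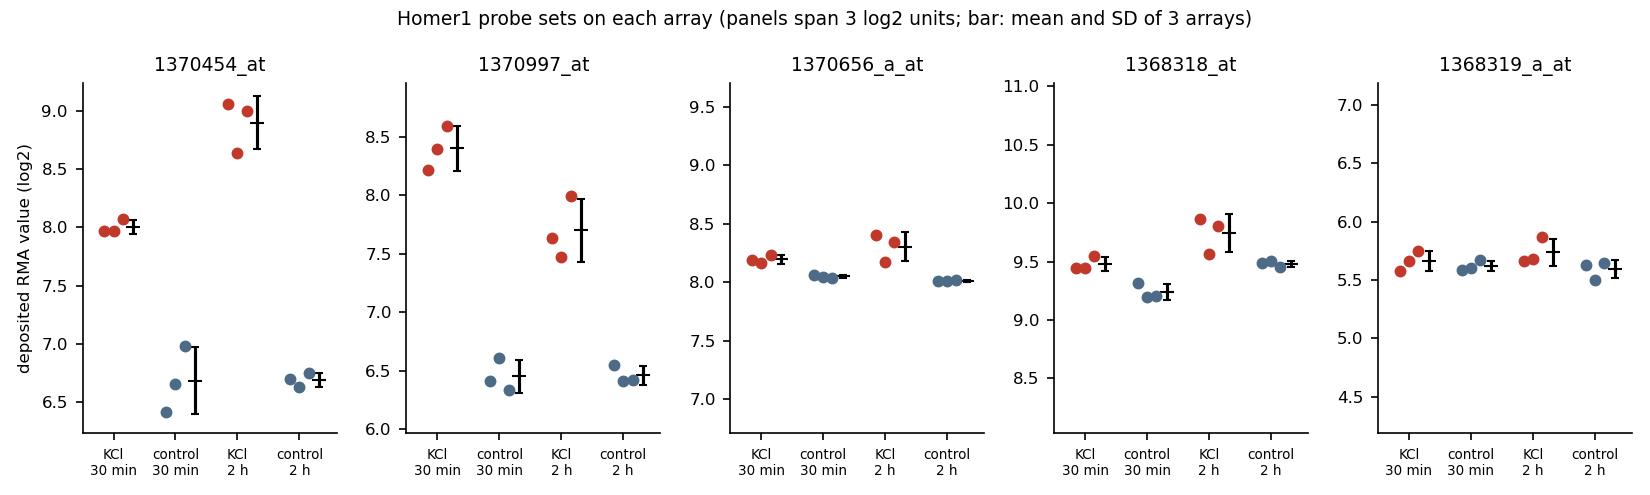
Deposited log2 RMA value (y axis) of each Homer1 probe set on each of the 12 arrays, with points for arrays and a bar for the mean and SD of 3 arrays. "KCl" marks depolarized cultures, and each panel spans the same 3 log2 units. 1370454_at stands highest in depolarized cultures at 2 h (8.64 to 9.05) and 1370997_at in depolarized cultures at 30 min (8.21 to 8.59). Differences in the other panels are smaller on this scale.

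Probe set 1368318_at rose at both times by smaller amounts. It was at 9.44, 9.45 and 9.55 in depolarized cultures at 30 min, against 9.32, 9.19 and 9.21 in controls, and at 9.86, 9.56 and 9.81 in depolarized cultures at 2 h, against 9.49, 9.51 and 9.45 in controls. Depolarized arrays lay above the controls at both times. The rise was 0.24 (0.08 to 0.40, adjusted p = 0.0300) at 30 min and 0.26 (0.10 to 0.42, adjusted p = 0.0173) at 2 h, about 1.18-fold and 1.20-fold. At 30 min it missed the threshold when depolarized replicate 2 (adjusted p = 0.0528) or 3 (0.112) or control replicate 2 (0.105) or 3 (0.0971) was left out. At 2 h it did so without depolarized replicate 4 (0.0972) or 6 (0.0642). Its responses at the 2 times differed by 0.03 (-0.20 to 0.25, adjusted p = 0.925).

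Probe set 1370656_a_at read 8.19, 8.16 and 8.24 in depolarized cultures at 30 min, against 8.06, 8.04 and 8.04 in controls. The groups did not overlap, but the difference of 0.15 (0.01 to 0.28) missed the threshold (adjusted p = 0.126). It passed after median centring of the arrays (adjusted p = 0.0340) and after quantile normalization (0.0408). At 2 h it read 8.40, 8.17 and 8.34 in depolarized cultures, against 8.01, 8.01 and 8.02 in controls, a rise of 0.29 (0.16 to 0.43, adjusted p = 0.00337). The suffix _a_at marks probe sets that Affymetrix designed to read several transcripts of a gene.

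Probe set 1368319_a_at shares its sequence record with 1368318_at, and 7.95% of all probe sets had a lower mean value. It read 5.58, 5.66 and 5.75 in depolarized cultures at 30 min, against 5.59, 5.60 and 5.67 in controls, and the groups overlapped. At 2 h it read 5.66, 5.68 and 5.87 in depolarized cultures, against 5.62, 5.50 and 5.64 in controls, just clear of each other. The differences were 0.04 (-0.11 to 0.20, adjusted p = 0.756) and 0.15 (-0.01 to 0.30, adjusted p = 0.160). The table holds no detection calls, so it is not known whether this probe set lay above background.

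By these tests 3 of the 5 Homer1 probe sets rose at 30 min, where 10.8% of all probe sets rose (24% changed either way), and 4 of 5 rose at 2 h, where 9.51% rose (25.2% changed). None fell at either time. Depolarized and control arrays did not overlap in 4 of 5 at 30 min and in 5 of 5 at 2 h, and among all probe sets they did not overlap in 36.8% at 30 min and 37.5% at 2 h. The median Homer1 difference was 0.24 at 30 min and 0.29 at 2 h, beside medians of 0.01 and -0.0007 over all probe sets. The 2 probe sets that passed the test for a difference between the responses had opposite signs, whereas 13% of all probe sets passed that test in either direction. Among the depolarized arrays at 2 h, replicate 5 was the lowest in 4 of the 5 Homer1 probe sets and the highest in 0. Without both replicates 5, the response difference of 1370454_at was 0.98 (adjusted p = 0.00212) and that of 1370997_at was -0.62 (adjusted p = 0.0377), in a repeat chosen after seeing the data.

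**Figure D2:**
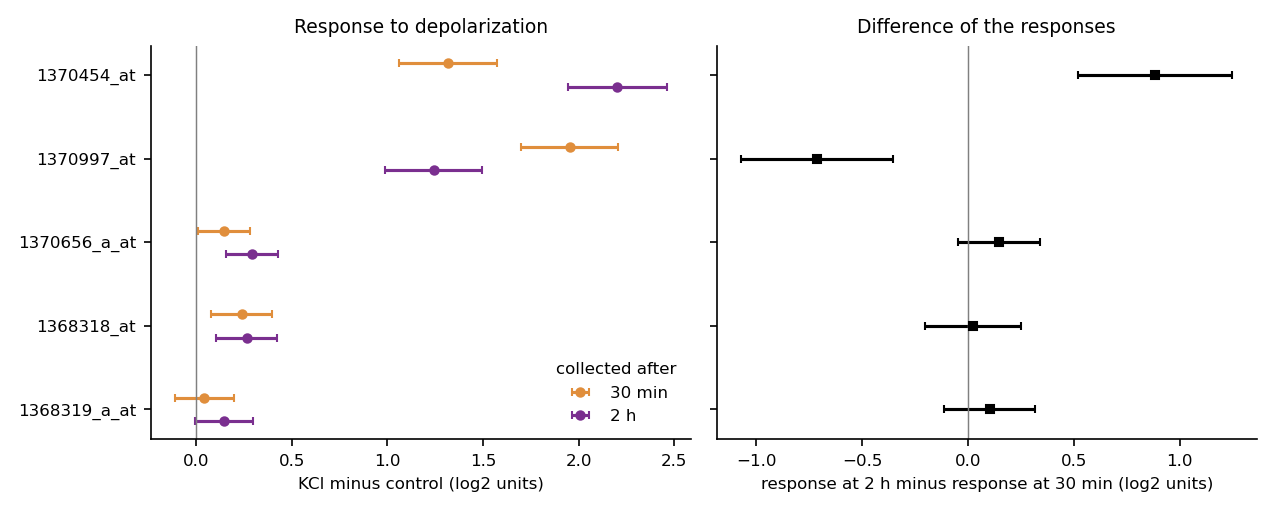
Left, depolarized minus control (x axis, log2 units) for each Homer1 probe set (y axis) at 30 min and 2 h. Right, the response at 2 h minus that at 30 min; bars are 95% intervals of the limma fit. 1370454_at lies right of zero on the right at 0.89 and 1370997_at left of it at -0.71, while the intervals of the other 3 probe sets include zero.

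Because the probe sets belong to 1 gene, their responses could be set against each other. Each probe set's difference was compared with the mean of the other Homer1 probe sets by limma's diffSplice, which covered 4240 probe sets of 1868 genes. This compares differences and never levels, and it treats probe sets of an array as independent. The departures of a gene's probe sets sum to 0, so those below the mean of the others are not separate from those above it. At 30 min every Homer1 probe set passed, where 9.93% of probe sets tested did, and the count is not read as 5 separate results. The response of 1370997_at was 1.52 above the mean of the others (adjusted p = 1.35e-14) and that of 1370454_at was 0.72 above it (adjusted p = 7.57e-06). Those of 1368318_at, 1370656_a_at and 1368319_a_at were 0.63 to 0.87 below it (differences -0.63, -0.74 and -0.87, weakest adjusted p = 8.40e-05).

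At 2 h every Homer1 probe set again passed, where 12.5% of all did. The order of the leading probe sets was turned, with 1370454_at 1.72 above the mean of the others (adjusted p = 1.42e-16) and 1370997_at 0.52 above it (adjusted p = 0.00152). When the dimmest 25% of probe sets, 1368319_a_at among them, were left out, 1370997_at no longer passed (0.32, adjusted p = 0.0958) and 3 Homer1 probe sets still did. A test of the change in response between the times, added after the values were seen, called the same 2 probe sets and 4.22% of all. By it 1370454_at departed by 0.99 (adjusted p = 4.87e-05) and 1370997_at by -1.002 (adjusted p = 4.38e-05). The test shows unequal change between probe sets and not which transcript changed.

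The levels in each treatment were also compared between the collection times. In depolarized cultures 1370454_at was higher at 2 h than at 30 min by 0.89 (adjusted p = 2.57e-05) and 1370997_at was lower by -0.70 (adjusted p = 0.000215). 1368318_at was higher by 0.27 (adjusted p = 0.0105), a call lost without depolarized replicate 4 at 2 h (adjusted p = 0.0605). The difference of 0.11 at 1370656_a_at missed the threshold (adjusted p = 0.189) but passed without depolarized replicate 5 at 2 h (0.18, adjusted p = 0.0377). In these cultures 41% of all probe sets differed between the times. In controls 1370454_at differed by 0.01 (-0.25 to 0.26) and 1370997_at by 0.01 (-0.25 to 0.26), and 35.3% of all probe sets differed. Only 1368318_at passed in controls, higher at 2 h by 0.24 (adjusted p = 0.0216), beside treatment differences of 0.24 and 0.26. Its call in controls was lost without either of control replicates 4 and 5 at 2 h or 2 and 3 at 30 min (adjusted p 0.0572, 0.0654, 0.0810 and 0.0699). Neuronal markers moved with it, with 8 of 8 higher in controls at 2 h than in controls at 30 min (median difference 1.04). Their part in the level of 1368318_at was not tested. Other marker lists differed between the control times too, with 6 of 8 dopaminergic markers higher at 2 h and 4 of 5 measured oligodendrocyte-lineage and 4 of 5 progenitor markers lower.

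Marker lists were also compared between depolarized and control arrays. At 30 min 1 of 8 neuronal markers rose and at 2 h 2 of 8, where 10.8% and 9.51% of all probe sets rose. The median neuronal differences were 0.08 at 30 min and -0.03 at 2 h. Summed oligodendrocyte-lineage markers were at 5451 to 6775 in depolarized arrays and 6899 to 8379 in controls at 30 min, and at 2386 to 2538 in depolarized arrays and 2811 to 3357 in controls at 2 h, apart both times. Of these 5 genes 1 fell at 30 min (Pdgfra) and 2 at 2 h (Pdgfra and Cnp). Among all probe sets 24% and 25.2% changed either way. The median difference of the list was -0.19 at 30 min and -0.007 at 2 h. Summed dopaminergic markers were at 2327 to 2490 in depolarized arrays and 1785 to 2035 in controls at 30 min, also apart. They overlapped at 2 h. Of these 8 genes 2 rose at 30 min, Nr4a2 and Foxa2, and at 2 h 3 rose and 1 fell. Nr4a2 is also on the list of immediate-early transcription factors. Th did not pass at 30 min (adjusted p = 0.369). Summed microglial markers overlapped at 30 min and were just apart at 2 h. They were then at 987 to 1076 in depolarized arrays and 916 to 983 in controls. Of these 6 genes 1 rose at 30 min (Cd68) and 0 changed at 2 h. Among all single probe sets 37.5% were apart at 2 h. The part of these cell types in the Homer1 responses was not tested.

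Over the 12 arrays the 10 pairs of Homer1 probe sets correlated at 0.50 to 0.93 (Pearson r). These values are descriptions, since the arrays fall into 4 groups and may share their normalization. The closest pair was 1370454_at with 1370656_a_at (r = 0.93), and the 2 strongest responders correlated at 0.78. For deviations from the group means, which leave out treatment and time, the closest pair was 1368318_at with 1370656_a_at (r = 0.93). In depolarized cultures at 2 h both had the same order, with replicate 4 highest and replicate 5 lowest. Probe set 1370454_at had that order too, and its deviations correlated with theirs at 0.33 and 0.55. The SD of 1370656_a_at was 0.12 in that group. It was 0.04 in depolarized cultures at 30 min, and 0.01 and 0.007 in controls at 30 min and 2 h. The r of 0.93 therefore rests largely on the 3 depolarized arrays at 2 h.

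The genes most like each Homer1 probe set were taken as the 5 with the highest Pearson r over 12 arrays among 673 probe sets whose group means spanned at least 1 log2 unit. For 1370454_at these were the TWEAK receptor gene Tnfrsf12a (r = 0.980), the AP-1 component Fosb (0.971), the heme oxygenase gene Hmox1 (0.969), the EGR corepressor Nab2 (0.966) and the sulfiredoxin gene Srxn1 (0.960). Their differences, such as 1.77 at 30 min and 3.14 at 2 h for Fosb, follow the time course of 1370454_at by the choice of genes. For 1370997_at they were the sterol regulator Insig1 (r = 0.982), the membrane-repair gene Trim72 (0.979), Tor1aip2 (0.974), the dynein regulator Pafah1b1 (0.972) and the transcription factor Egr2 (0.970). The same holds for these, with 1.43 at 30 min and 0.78 at 2 h for Insig1. The 2 sets had no gene in common, which is not read as a result, since each was picked for its likeness to 1 profile.

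**Figure D3:**
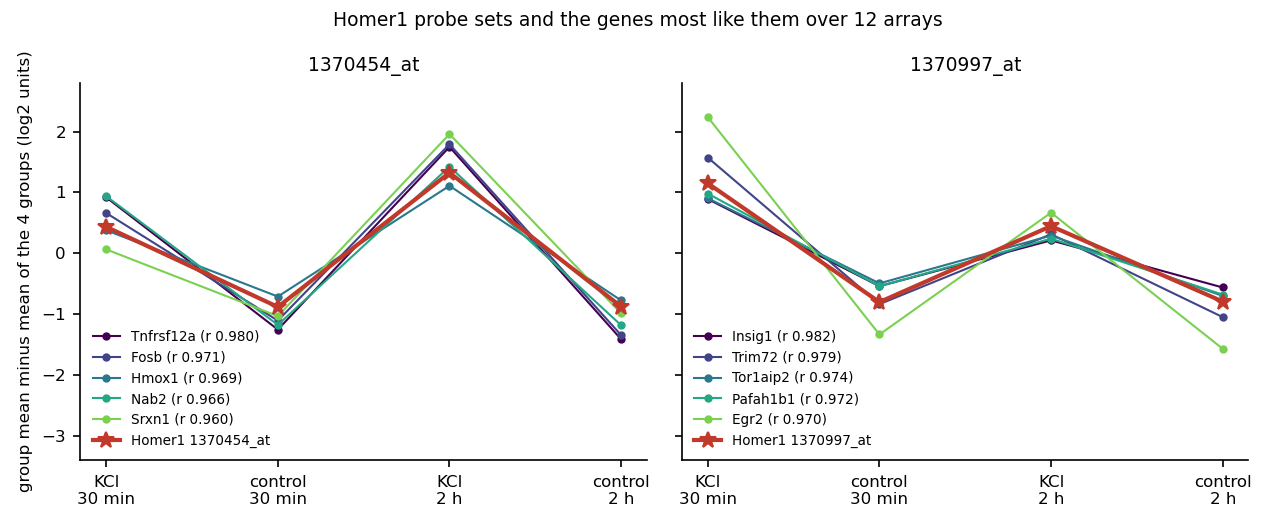
Group means minus the mean of the 4 groups (y axis, log2 units) by group (x axis, "KCl" for depolarized), for 1370454_at (left) and 1370997_at (right) as stars and for the 5 genes most like each as circles, with Pearson r over 12 arrays. The left profiles are highest in depolarized cultures at 2 h and the right profiles in depolarized cultures at 30 min.

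For 1368318_at the 5 most similar genes were the membrane skeleton gene Epb41 (r = 0.955), the neurofilament gene Nefm (0.927), the small GTPase gene Rem2 (0.920), Tes (0.905) and the granin gene Scg2 (0.903). Nefm averaged 9.57 in controls at 2 h and 8.66 in controls at 30 min. The others were higher in controls at 2 h too. At 2 h and 30 min these averaged 7.43 and 6.84 for Epb41, and 7.17 and 6.71 for Rem2. Tes averaged 7.14 and 6.90, and Scg2 9.25 and 7.03. Nefm also rose with depolarization, by 0.65 at 30 min (adjusted p = 6.20e-06) and 0.39 at 2 h (adjusted p = 0.00109). For 1370656_a_at they were the syndecan gene Sdc4 (r = 0.949), Tnfrsf12a (0.945), the clock repressor Bhlhe40 (0.944), Nab2 (0.944) and the cochaperone Bag3 (0.934).

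Homer2 and Homer3, which encode the other Homer scaffolds, were measured by 1 probe set each. Homer2 averaged 6.91 ± 0.03 in depolarized cultures at 30 min and 6.97 ± 0.04 in controls (SD, n = 3), and differed by -0.06 at 30 min (adjusted p = 0.603) and by 0.08 at 2 h (adjusted p = 0.448). Homer3 differed by -0.07 at 30 min (adjusted p = 0.684) and rose by 0.29 at 2 h (adjusted p = 0.0372). Both were lower in controls at 2 h than in controls at 30 min, Homer2 by -0.42 (adjusted p = 0.000202) and Homer3 by -0.68 (adjusted p = 5.23e-05).

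Of 15 measured genes for Homer ligands and partners, 0 changed at 30 min (median difference 0.001), and 0 rose and 2 fell at 2 h (median 0.01), where 24% and 25.2% of all probe sets changed. The genes that fell were Itpr1, the inositol trisphosphate receptor of the endoplasmic reticulum, which fell by 0.28 (adjusted p = 0.0231), and the scaffold gene Shank2, which fell by 0.47 (adjusted p = 0.00122). Its second probe set gave 0.07 (adjusted p = 0.679). The metabotropic glutamate receptor gene Grm5 differed by 0.17 at 30 min (adjusted p = 0.115) and 0.08 at 2 h (adjusted p = 0.482). Shank1 and Shank3 differed by 0.01 and -0.01 at 2 h (adjusted p = 0.952 and 0.941).

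Among 12 measured postsynaptic density scaffolds, 1 rose at 30 min, Dlg1 at 0.22 (adjusted p = 0.0285), while its other probe set did not pass (0.001, adjusted p = 0.993). At 2 h 1 rose and 2 fell. These shares, 1 of 12 and 3 of 12, stood beside 24% and 25.2% of all probe sets and are no higher than that background. Baiap2, whose protein IRSp53 links membranes to actin, rose by 0.99 (adjusted p = 9.59e-06), and its other probe sets rose by 0.83 and 0.71. Dlg3 fell by 0.37 (adjusted p = 0.000768) and the kinase gene Camk2b fell by 0.30 (adjusted p = 0.0376), while the other probe sets of these genes did not pass (Dlg3 adjusted p = 0.270 and 0.797, Camk2b adjusted p = 0.0941). Dlg4, which encodes PSD-95, differed by 0.12 at 2 h (adjusted p = 0.435) and Dlgap1 by -0.20 (adjusted p = 0.0881). Another Dlgap1 probe set, dimmer than the one counted, rose by 0.31 at 30 min (adjusted p = 0.0222) and fell by 0.53 at 2 h (adjusted p = 0.000592).

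Other activity-response genes showed both patterns seen in Homer1 over the collection times. Of 14 measured synaptic effectors 9 rose at 30 min and 8 at 2 h, and 0 fell, while 10.8% and 9.51% of all probe sets rose. Between the times 13% of all probe sets differed in response. The response of 4 was larger at 2 h, as at 1370454_at. They were the pentraxin gene Nptx1 (response difference 1.63), the granin-related gene Vgf (1.31), the G-protein regulator Rgs4 (0.63) and the neurotrophin gene Bdnf (0.44). It was smaller at 2 h for 2, as at 1370997_at, namely Arc, which encodes a postsynaptic regulator of AMPA receptors (-1.14, adjusted p = 0.0128), and the kinase gene Plk2 (-0.77, adjusted p = 0.000227). Of 17 immediate-early transcription factors 16 rose at 30 min and 14 at 2 h, beside the same 10.8% and 9.51%. The response of 2 was larger at 2 h (Fosb at 1.37 and Fosl1 at 0.89) and that of 8 was smaller, among them Atf3 (-1.88), Jun (-0.99), Egr1 (-0.93) and Fos (-0.67), beside the 13% of all. Fos and Bdnf each had another probe set that did not pass at either time. That of Fos gave 0.10 at 30 min (adjusted p = 0.291) and 0.05 at 2 h (adjusted p = 0.610). That of Bdnf gave 0.06 (adjusted p = 0.655) and 0.10 (adjusted p = 0.302). Their response differences did not pass either (adjusted p = 0.804 for Fos and 0.831 for Bdnf).

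**Figure D4:**
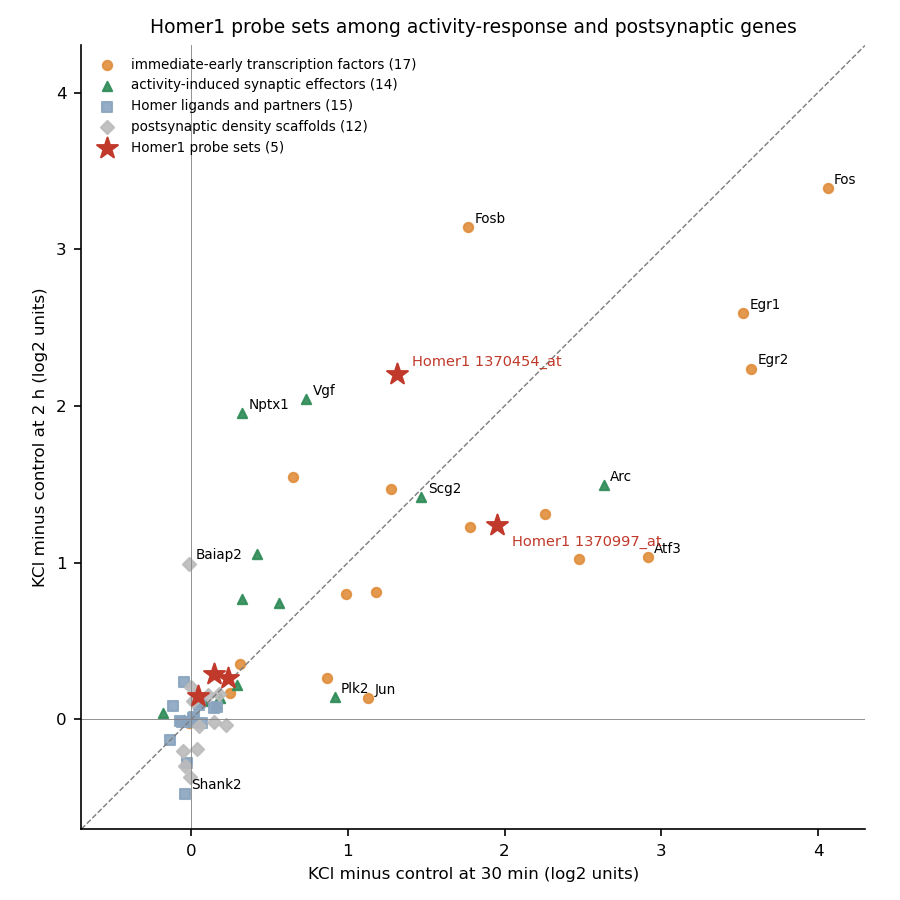
Depolarized minus control at 30 min (x axis) and at 2 h (y axis), both in log2 units, for the 5 Homer1 probe sets (stars) and the genes of 4 lists. The dashed line marks equal responses. Homer1 1370454_at lies above it (1.32, 2.20) with Fosb, Nptx1 and Vgf, and 1370997_at below it (1.95, 1.24) with Arc, Egr1 and Fos. Partners and scaffolds other than Baiap2 lie closer to the origin than these 2 probe sets. The lowest of them at 2 h are Shank2 (-0.04, -0.47) and Dlg3 (-0.004, -0.37).

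Regulators of activity-dependent transcription rose in 6 of 13 measured genes at 30 min and in 6 at 2 h, with 0 and 1 falls, where 10.8% and 9.51% of all probe sets rose. The CArG-box factor gene Srf rose by 0.79 at 30 min (adjusted p = 5.40e-07) and 0.64 at 2 h (adjusted p = 1.23e-05), while its other probe set missed the threshold both times (adjusted p 0.413 and 0.356). Mef2c, which encodes a calcium-regulated transcription factor, differed by 0.06 at 30 min (adjusted p = 0.782) and rose by 0.55 at 2 h (adjusted p = 0.00181). Mef2d rose by 0.32 at 2 h (adjusted p = 0.0271) and Crem by 0.27 and 0.29 (adjusted p = 0.0143 and 0.00921). The other Crem probe sets missed the threshold at 30 min (adjusted p = 0.222 and 0.0640) and at 2 h (adjusted p = 0.212 and 0.606). Creb1 did not pass at its brightest probe set (0.23 at 30 min, adjusted p = 0.160), while a dimmer one rose by 0.59 (adjusted p = 1.05e-05).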

How the data were processed

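RMA, named by the submitters' processing notes with no version, was used by the authors to turn the scans into the deposited log2 values. That they are log2 was read off their range, 4.41 to 14.58, and which arrays were normalized together is not given in the sources used here. The 57 array control probe sets of 15923 were dropped. The platform annotation, possibly outdated, named a single gene for 12783 of the rest, more than 1 for 312 and no gene for 2771. Arrays have no read depth, so their number limits the precision.

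All 12 arrays entered a means model of 4 groups in limma 3.58.1 under R 4.3.3, with 8 residual degrees of freedom, two-sided tests, Benjamini-Hochberg adjustment over 15866 probe sets and a threshold of 0.05. diffSplice used that fit. Both were tested on simulated arrays whose noise was independent between probe sets. The effect of correlated probe sets on diffSplice was therefore not tested. Where several probe sets read a listed gene, the one with the highest mean stood for it. The genes named were all Homer1 probe sets, the 5 most similar genes of each probe set that passed, a written list, and up to 4 more per list by smallest p. Genes named for a larger or smaller response at 2 h, and other probe sets of a named gene, were chosen after their values were seen. The members and lists were chosen with earlier results of these data known. Alternatives covered the arrays fitted, array scaling, dim probe sets, array weights, the variance prior, the threshold, a replicate block and single arrays left out.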

Additional observations from a re-analysis of the deposited data

Results flagged for a closer look

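For 1370454_at the response to depolarization differed between the collection times by a direct test of the difference, being larger at 2 h by 0.89 (adjusted p = 0.00252 by limma). For 1370997_at the same test found it smaller at 2 h (-0.71, adjusted p = 0.0102). Depolarized arrays lay above the controls in both probe sets at both times, in 3 of 3 arrays each. Among all probe sets 36.8% at 30 min and 37.5% at 2 h did not overlap, in either direction. This separation does not bear on the difference between the times. The cultures of the collection times also differed in neuronal marker RNA, and its part in these response differences was not tested.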

How the results depend on the processing

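The responses of 1370454_at and 1370997_at kept direction and call at both times under every alternative that kept the probe set. Leaving out the dimmest 50% of probe sets removed all but 1368318_at, so the number of Homer1 probe sets called was 1 at 30 min, 1 at 2 h, 0 for the response difference and 1 between the times in depolarized cultures. Without the dimmest 25%, 3 departed from the rest of the gene at 2 h. At an adjusted p of 0.01 the calls of 1368318_at at 30 min (0.24, adjusted p = 0.0300) and 2 h (0.26, adjusted p = 0.0173) and of the response difference of 1370997_at (-0.71, adjusted p = 0.0102) were lost, leaving 1 response difference and 0 control differences called. Deviations from the group means correlated between same-numbered depolarized and control arrays at -0.32, 0.23 and 0.05 at 30 min. At 2 h these values were 0.24, -0.11 and -0.24. Arrays with different numbers gave r of -0.42 to 0.35. With 3 arrays a group these values cannot decide whether the numbers pair the arrays. With the replicate block, 1368318_at did not pass at 30 min (0.24, adjusted p = 0.0530), and no other call on a treatment comparison changed. 1370656_a_at passed at 30 min after median centring (0.20) and quantile normalization (0.18).

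Leaving out 1 array in turn gave 0.20 to 0.28 for 1368318_at at 30 min, 0.20 to 0.35 at 2 h and -0.034 to 0.12 for its response difference, and -0.000189 to 0.0845 for 1368319_a_at at 30 min. At 2 h, where it was not called, 1368319_a_at gave 0.08 (without depolarized replicate 6) to 0.18. The number of control differences called ranged from 0 to 1.

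Control differences near 0 changed sign. 1370454_at gave -0.0125 after median centring, -0.0292 with array weights and -0.13 to 0.16 without single arrays. 1370997_at gave -0.00982 after median centring and -0.0515 to 0.0863 without single arrays. 1368319_a_at gave 0.0281 after quantile normalization, 0.0148 without both replicates 5 (chosen after seeing the data), and -0.056 to 0.0148 without single arrays. The cause was not tested. With 3 arrays a group, small differences have wide intervals.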
